A study of Rattus norvegicus with 24 samples.

Results

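The inducible heat shock proteins and their co-chaperones were followed in rat quadriceps muscle as 10 genes, Hspa1b, Hsph1, Hspa8, Hsp90aa1, Dnajb1, Hspb1, Cryab, Bag3, Hspd1 and Hspe1. They were chosen by symbol with earlier results of these data known, so that their counts beside the share of all genes are descriptions. In all, 21067 genes had a count and an FPKM value (fragments normalised to transcript length and library size) in each library. The tests covered the 14772 genes whose FPKM averaged 0.1 or more, and all 10 were among them. The rats were young Sprague-Dawley animals, and each of 4 groups held 6 libraries. All animals were first habituated to a treadmill, after which the control group was fed normally and did not train. The treadmill group trained with rising speed over several weeks, with an electrified grid behind the belt, and then ran to exhaustion. The catgut 1 group had pieces of collagen thread embedded under ether. The points were Qiang Feng, Bai Hui and 4 in a muscle groove of each hind limb. These rats then recovered for a week, followed the same training and also ran to exhaustion. The catgut 2 group had the same acupoints and Fei Shu in addition. No group carried the thread without training, and none trained without the final run, so that training and the final run cannot be told apart. The final run lasted until each animal was exhausted, and its length is not given in the sources used here. No group had ether and needling without thread, so that these cannot be told apart from the thread. The study's methods describe equal numbers of males and females in each group, and the labels give neither sex nor batch. The summed FPKM of 3 measured Y-linked genes was between 8.45 and 21.6 in replicates 4, 5 and 6 of control, treadmill and catgut 1, and in replicates 1 and 5 of catgut 2. It was 0.0287 or less in every other library, so that 3, 3, 3 and 2 of 6 libraries held these transcripts. The 2 of 6 in catgut 2 is not the equal split that the methods describe.

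Heat shock proteins are molecular chaperones that bind unfolded or misfolded polypeptides and keep them from aggregating. In resting cells heat shock factor 1 is held inactive in the cytosol, and when unfolded proteins accumulate it forms trimers, enters the nucleus and binds heat shock elements, which are inverted repeats of the unit GAA. Contracting skeletal muscle is a well-known site of this response, since running raises muscle temperature, depletes energy stores and strains myofibrils. In many cell types the HSP70 protein encoded by Hspa1b is scarce at rest, whereas its relative Hspa8 is made constantly. J-domain proteins such as Dnajb1 hand clients to HSP70 and stimulate its ATPase, Hsph1 (HSP110) and Bag3 release its nucleotide, and Hsp90aa1 takes over clients at a later stage of folding. Hspb1 and Cryab are small heat shock proteins that hold clients without using ATP, and Cryab sits at the Z-discs of slow and cardiac muscle. Hspd1 and Hspe1 form the chaperonin of the mitochondrial matrix.

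No promoter sequence was available from RefSeq (assembly GRCr8) for Hspa1b, Hsp90aa1 and Cryab. Promoters of the other 7 of the 10 genes were available, as 250 bases before and 50 bases after the gene start. Of these, 7 of 7 held at least 1 pair of inverted units, GAANNTTC or TTCNNGAA, each of which reads the same on both strands. Of all 33469 RefSeq promoters of that length, 15.9% held such a pair. A run of at least 3 such alternating units, again with any 2 bases between neighbours, stood in 4 of the 7, Hsph1, Hspa8, Hspd1 and Hspe1, and in 0.798% of all promoters. Each run of 3 units contains pairs, so that the counts overlap. The windows of 6 genes are given because they place the runs beside the genes' values, each with its position on GRCr8, written 5′ to 3′ with the alternating units in capitals.
Dnajb1 (chr19:41431092-41431391, minus strand): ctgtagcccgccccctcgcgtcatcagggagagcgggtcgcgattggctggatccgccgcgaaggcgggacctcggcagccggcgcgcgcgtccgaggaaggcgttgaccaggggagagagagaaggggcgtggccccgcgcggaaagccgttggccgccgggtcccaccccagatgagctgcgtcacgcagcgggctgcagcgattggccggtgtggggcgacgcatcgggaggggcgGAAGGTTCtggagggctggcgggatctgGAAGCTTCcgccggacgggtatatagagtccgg
Hspb1 (chr12:26432252-26432551, minus strand): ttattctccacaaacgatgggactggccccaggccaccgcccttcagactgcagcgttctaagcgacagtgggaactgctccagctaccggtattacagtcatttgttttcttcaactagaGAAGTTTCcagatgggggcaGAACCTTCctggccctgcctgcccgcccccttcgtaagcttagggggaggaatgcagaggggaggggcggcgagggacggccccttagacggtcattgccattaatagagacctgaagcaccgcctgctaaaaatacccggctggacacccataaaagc
Bag3 (chr1:192533210-192533509, plus strand): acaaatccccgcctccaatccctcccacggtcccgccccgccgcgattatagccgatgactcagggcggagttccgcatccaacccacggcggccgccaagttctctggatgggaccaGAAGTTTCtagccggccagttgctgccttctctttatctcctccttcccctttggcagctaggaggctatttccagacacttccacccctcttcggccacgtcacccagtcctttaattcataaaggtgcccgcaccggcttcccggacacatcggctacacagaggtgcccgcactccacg
Hsph1 (chr12:10427118-10427417, plus strand): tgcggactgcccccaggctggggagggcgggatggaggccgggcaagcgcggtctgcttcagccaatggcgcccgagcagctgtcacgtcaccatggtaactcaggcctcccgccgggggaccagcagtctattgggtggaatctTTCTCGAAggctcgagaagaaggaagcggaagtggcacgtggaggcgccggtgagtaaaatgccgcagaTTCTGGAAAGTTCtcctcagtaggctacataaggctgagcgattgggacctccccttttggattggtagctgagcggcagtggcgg
Hspa8 (chr8:50080264-50080563, plus strand): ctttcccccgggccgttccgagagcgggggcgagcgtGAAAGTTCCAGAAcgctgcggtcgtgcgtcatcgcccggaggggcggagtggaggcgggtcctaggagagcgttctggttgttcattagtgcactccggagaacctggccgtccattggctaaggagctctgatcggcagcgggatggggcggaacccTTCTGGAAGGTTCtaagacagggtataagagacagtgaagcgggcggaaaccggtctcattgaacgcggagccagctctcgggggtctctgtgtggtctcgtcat
Hspe1 (chr9:64084077-64084376, plus strand): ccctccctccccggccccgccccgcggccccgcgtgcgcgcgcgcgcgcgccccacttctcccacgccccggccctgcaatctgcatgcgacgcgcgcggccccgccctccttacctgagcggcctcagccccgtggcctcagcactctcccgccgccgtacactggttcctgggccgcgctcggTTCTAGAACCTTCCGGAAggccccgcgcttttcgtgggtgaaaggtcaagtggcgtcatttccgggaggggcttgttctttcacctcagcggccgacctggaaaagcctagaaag
In the Dnajb1 window the first pair ended 4 bases before the start and the other began 17 bases after it. The Hspb1 pairs began 129 and 109 bases upstream, and the single Bag3 pair 132 bases upstream. Hsph1 held a pair 105 bases upstream and a 3-unit run 36 bases upstream, and Hspa8 held 3-unit runs 213 and 55 bases upstream. The longest run, of 18 bases, lay 65 bases before the start of Hspe1. The Hspd1 window, on the other strand, overlaps that of Hspe1 by 211 bases, so that the same 18 bases lay 242 bases before the start of Hspd1. A match describes letters and does not show that a factor bound there.

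**Figure D1:**
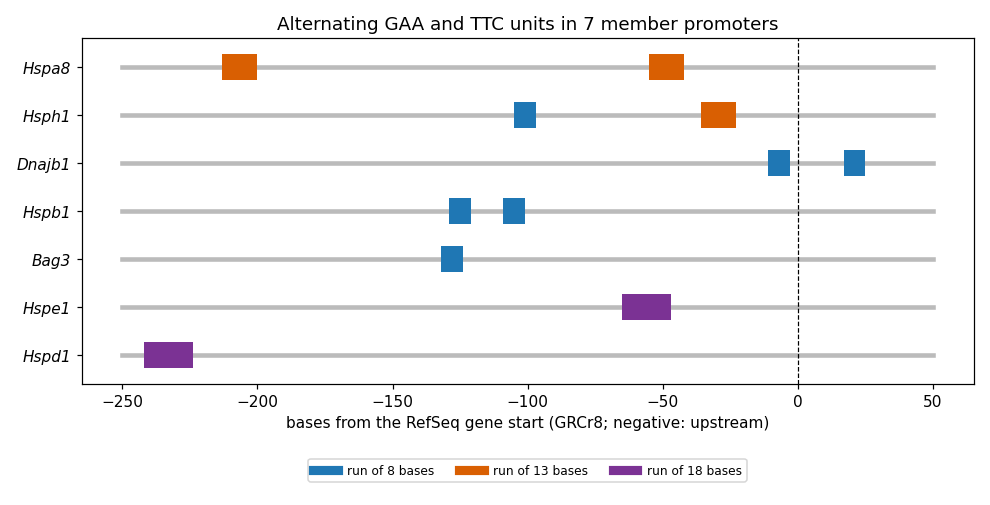
Runs of alternating GAA and TTC units in the 7 member promoters, drawn in bases from the RefSeq gene start (dashed line). Grey lines are the 300-base windows and coloured blocks are runs of 8, 13 and 18 bases. The Hspd1 and Hspe1 blocks are the same bases of their overlapping windows, 242 and 65 bases before the respective starts.

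Total counts were between 45945938 and 78278080 per library, 61682752 or more in the control group and 69153343 or less in the exercised groups, and the lowest count of a member was 737, for Dnajb1. Pearson's r of Hspa1b with the log2 total was -0.60 over 24 libraries and -0.03 on deviations from group means. The summed FPKM of 10 measured skeletal muscle markers (of 12) was between 74115 and 106522. Sums of markers of other cells were far lower, between 9.9 and 367 for 9 liver genes, 0 and 6.35 for 8 neutrophil genes, 28.2 and 211 for 9 macrophage genes 318 and 703 for 7 adipocyte genes, 47.2 and 96.7 for 6 endothelial genes, 81.8 and 589 for 6 fibroblast genes and 8.81 and 120.5 for 7 genes of nerve and Schwann cells. With edgeR 0 genes of these lists had an adjusted p under 0.05 in catgut 2 or in the exercised groups against control. In the exercised groups the median log2 difference was -4.96 for the liver genes, 7 of 9 of which met the study's criterion (group means over 1.5 times apart with an unadjusted p under 0.05) as lower, and -1.11 for the adipocyte genes, with Adipoq and Lep meeting it (2.18% of all genes). In catgut 2 against control it was 0.75 for the nerve genes, with Pmp22, Mbp and Prx meeting it as higher (3.52% of all genes), and 0.41 for the endothelial genes, 4 of 6 of which had an unadjusted p under 0.05 (16.4%). The highest liver sums were 239.9 in a control and 367 in a treadmill library, and no catgut library was over 18.8. The 5 measured red cell genes (of 9) summed to 233 to 433 in the control libraries and 238 to 1382 in the exercised libraries. The part of these cells and of depth in the results was not tested, and in a tissue sample fewer cells of a type and less RNA per cell cannot be told apart. Across all genes tested, the median log2 fold change against control was between -0.012 and -0.0020.

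Levels spanned a wide range at rest. In the control libraries Cryab had the highest mean FPKM of the 10 genes, 394 ± 128 (SD, n = 6), followed by Hspa8 at 221 ± 27.7, Hspb1 at 195 ± 48.6, Hspe1 at 141 ± 11.8, Hspd1 at 73.9 ± 4.18 and Bag3 at 37.9 ± 4.45. Hsph1 with 15.9 ± 1.87, Hspa1b with 14.05 ± 6.46, Hsp90aa1 with 13.2 ± 2.93 and Dnajb1 with 5.74 ± 1.51 were lowest. The ranges of Cryab, Hspa8, Hspb1 and Hspe1 overlapped between neighbours in this order, as did those of Hsph1, Hspa1b and Hsp90aa1. The remaining neighbours were apart in all 6 control libraries.

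**Figure D2:**
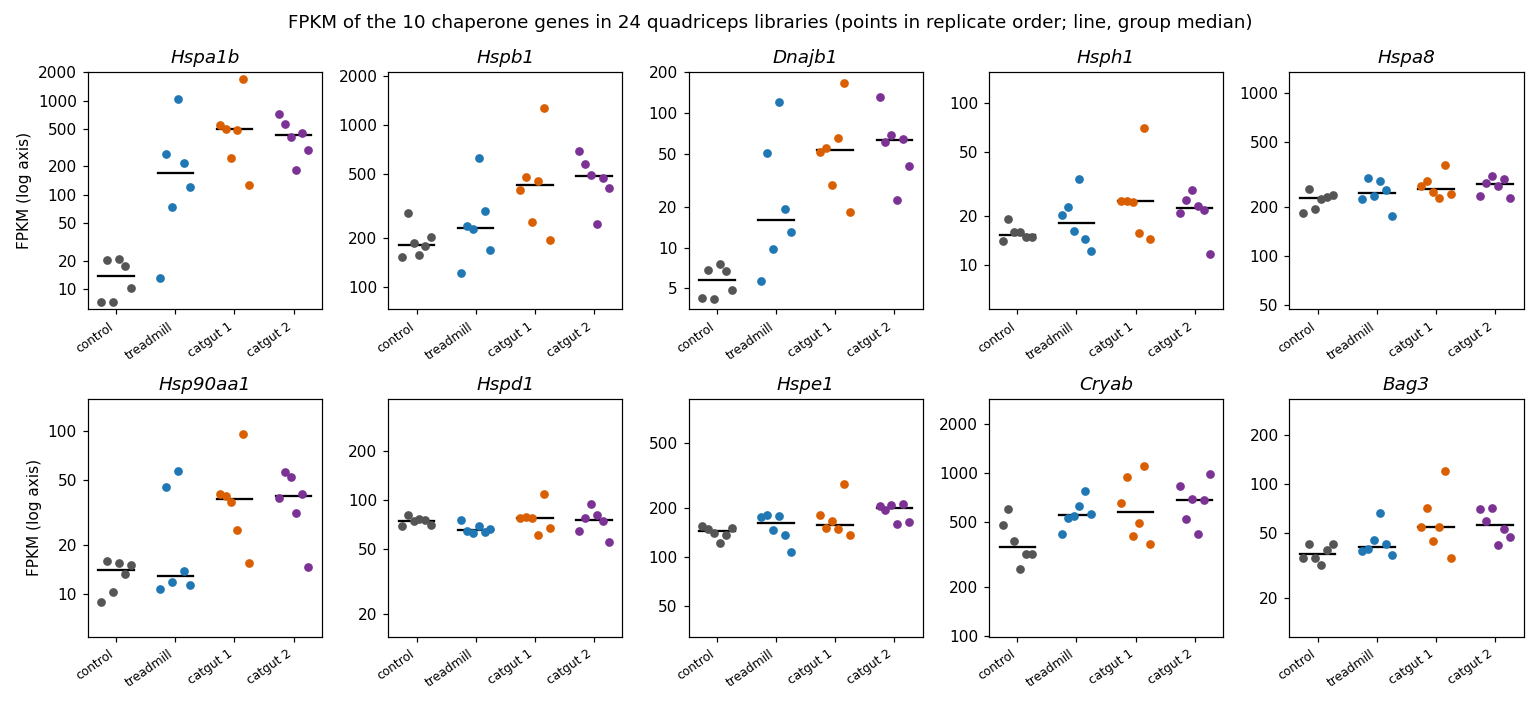
FPKM on a logarithmic axis for each gene and library, with 6 points per group in replicate order and a line at the group median. Hspa1b and Dnajb1 of both catgut groups lie above every control library, with a treadmill library inside the control range, while Hspd1 stays between 55.1 and 109 in all 24 libraries.

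Hspa1b, the stress-inducible HSP70 (ENSRNOG00000050647, chromosome 20, 4877324 to 4879779, minus strand, in the coordinates of the deposited table, which names no build), differed most from control. Its FPKM in the control libraries was 7.34, 20.6, 7.40, 21.1, 17.5 and 10.3. In the treadmill libraries it was 13.2, 273, 75.2, 1051, 218 and 121. In the catgut 1 libraries it was 546, 495, 248, 491, 1677 and 127, and in the catgut 2 libraries 719, 569, 413, 185, 448 and 295. These values place both catgut groups entirely above the control group, and 5 of 6 treadmill libraries were, the other (replicate 1) lying inside the control range. The highest exercised library had 127 times the FPKM of the lowest. Hspa1b was 42.95-fold higher in catgut 1 than in control (95% interval 17.1 to 107.6, log2 fold change 5.42, SE 0.61, adjusted p = 0.0114) and 32.1-fold higher in catgut 2 (17.0 to 60.5, log2 fold change 5.002, SE 0.42, adjusted p = 0.000453). Without catgut 1 replicate 5 the catgut 1 difference was 28.6-fold (adjusted p = 0.00378). In the treadmill group the fitted difference was 21.8-fold (6.03 to 78.5, log2 fold change 4.44, SE 0.85) and did not pass with edgeR, with an adjusted p of 0.161. Without treadmill replicate 1 it passed (adjusted p = 0.0456), and it also passed with DESeq2 (adjusted p = 8.58e-05) and with edgeR in 1 fit over all 4 groups (adjusted p = 0.0121). The log2 difference was 3.33 without treadmill replicate 4, between 3.36 and 3.45 with limma and 3.52 with the replicate number as a block. An exact two-sided permutation test of log2(FPKM + 1) on this single gene gave p = 0.00866 for treadmill and p = 0.00216, the smallest that 924 arrangements allow, for each catgut group, unadjusted among 70 such tests. The table lists no Hspa1a, a nearly identical paralog, so that reads of the pair cannot be told apart here.

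The change in rank shows the scale of the difference. Among the genes tested, Hspa1b had a median rank by FPKM of 3212 in the control libraries, 400 in treadmill, 141.5 in catgut 1 and 165 in catgut 2. Its best rank was 43, in catgut 1. The ratio of Hspa1b to Hspa8, the inducible to the constitutive HSP70, had a median of 0.0596 in control (0.0380 to 0.0945), 0.776 in treadmill (0.0586 to 3.64), 1.88 in catgut 1 (0.531 to 4.66) and 1.43 in catgut 2 (0.686 to 3.08). Hspa1b exceeded Hspa8 in 0 of 6 control, 1 of 6 treadmill, 5 of 6 catgut 1 and 5 of 6 catgut 2 libraries.

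Dnajb1, the J-domain partner of HSP70 (ENSRNOG00000021824, chromosome 19, 24747178 to 24750919), followed Hspa1b closely. Its FPKM ranged from 4.19 to 7.62 in control (median 5.79), 5.65 to 120.0 in treadmill (median 16.2), 18.5 to 168 in catgut 1 (median 52.9) and 22.4 to 131 in catgut 2 (median 62.6). Both catgut groups were again entirely above control, and the treadmill library inside the control range was replicate 1, as for Hspa1b. Dnajb1 was 11.3-fold higher in catgut 1 (95% interval 5.68 to 22.5, adjusted p = 0.0199) and 11.6-fold higher in catgut 2 (6.49 to 20.8, adjusted p = 0.00303) than in control. In the treadmill group the fitted difference was 6.49-fold (2.43 to 17.3, log2 difference 2.70), with an adjusted p of 0.353 with edgeR and 0.0104 with DESeq2. It was 3.32-fold without treadmill replicate 4, between 3.40- and 3.72-fold with limma and 3.73-fold with the replicate block.

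Hsp90aa1, the inducible cytosolic HSP90 (ENSRNOG00000059714, chromosome 6, 135107271 to 135112775), ranged from 9.01 to 15.9 FPKM in control (median 14.1), 10.8 to 57.5 in treadmill (median 12.9), 15.5 to 96.2 in catgut 1 (median 38.4) and 14.6 to 56.2 in catgut 2 (median 40.2). The treadmill group was split, with replicates 2 and 4 at 45.5 and 57.5 and the other 4 libraries at or below 13.9, within the control range. In both catgut groups 5 of 6 libraries were above every control library, and replicate 6 was not. Hsp90aa1 rose 2.94-fold in catgut 2 against control (95% interval 1.99 to 4.34, adjusted p = 0.0267). In catgut 1 it was 3.19-fold (1.91 to 5.32, adjusted p = 0.16 with edgeR and 0.0043 with DESeq2) and in treadmill 1.91-fold (1.02 to 3.59, adjusted p = 0.544). The ratio of Hsp90aa1 to its constitutive relative Hsp90ab1 had medians of 0.0238 in control, 0.0232 in treadmill, 0.0513 in catgut 1 and 0.0650 in catgut 2.

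Hspb1, a small heat shock protein that stabilises actin and intermediate filaments (ENSRNOG00000023546, chromosome 12, 23839399 to 23841049), ranged from 153 to 286 FPKM in control (median 184), 122 to 626 in treadmill (median 233), 197 to 1267 in catgut 1 (median 423) and 246 to 685 in catgut 2 (median 481). In catgut 2, 5 of 6 libraries were above every control library, compared with 4 of 6 in catgut 1 and 2 of 6 in treadmill. It rose 2.47-fold in catgut 2 against control (95% interval 1.69 to 3.60, adjusted p = 0.0451). In catgut 1 the difference was 2.57-fold (1.44 to 4.59, adjusted p = 0.311) and in treadmill 1.48-fold (0.873 to 2.49, adjusted p = 0.641).

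Cryab, the small heat shock protein of the Z-disc (ENSRNOG00000010524, chromosome 8, 55178289 to 55182545), ranged from 257 to 603 FPKM in control, 421 to 779.7 in treadmill, 367 to 1101 in catgut 1 and 425 to 987 in catgut 2. All 3 exercised groups overlapped the control group. Log2 differences from control were 0.58 in treadmill, 0.73 in catgut 1 and 0.82 in catgut 2, with adjusted p-values of 0.518, 0.462 and 0.174 with edgeR. DESeq2 called Cryab in catgut 2 (adjusted p = 0.0385). Hspb2, whose gene begins 470 bases away on the opposite strand, had medians of 81.5, 83.1, 83.5 and 83.0 FPKM in the 4 groups, and log2 differences from control of 0.08, 0.12 and 0.03. The ratio of Cryab to Hspb2 had medians of 4.69 in control, 7.10 in treadmill, 6.91 in catgut 1 and 8.72 in catgut 2.

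Bag3, which links HSP70 to small heat shock proteins and directs damaged filamin to autophagy (ENSRNOG00000020298, chromosome 1, 199941161 to 199965191), ranged from 32.0 to 43.0 FPKM in control, 36.9 to 66.6 in treadmill, 35.04 to 120.4 in catgut 1 and 42.1 to 71.2 in catgut 2. In each catgut group 5 of 6 libraries were above every control library. The differences from control were 1.21-fold in treadmill, 1.66-fold in catgut 1 and 1.51-fold in catgut 2 (95% interval 1.18 to 1.92), and none passed with edgeR (adjusted p = 0.638, 0.401 and 0.12). DESeq2 called Bag3 in catgut 2 (adjusted p = 0.0168). Hsph1, the HSP110 nucleotide exchange factor (ENSRNOG00000000902, chromosome 12, 6322668 to 6341902), had medians of 15.5, 18.3, 24.8 and 22.6 FPKM in control, treadmill, catgut 1 and catgut 2, with overlapping groups. Its fitted differences from control were 1.28-, 1.81- and 1.37-fold, with adjusted p-values of 0.617, 0.416 and 0.181. Hspa8, the constitutive HSP70 (ENSRNOG00000034066, chromosome 8, 44990014 to 44993179), was between 176 and 360.0 FPKM in all libraries. It differed from control by 1.13-, 1.22- and 1.21-fold, with adjusted p-values of 0.689, 0.474 and 0.22.

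With edgeR neither gene of the mitochondrial pair passed in any comparison of all libraries. Hspd1 (ENSRNOG00000014525) and Hspe1 (ENSRNOG00000051624) lie head to head on chromosome 9, at 61680530 to 61690956 and 61692154 to 61694599, with 1197 bases between them. That distance is from the deposited annotation, and the RefSeq starts lie closer together, since their windows overlap by 211 bases. Hspd1 had medians of 74.5, 65.2, 77.2 and 75.6 FPKM in control, treadmill, catgut 1 and catgut 2, and its log2 differences from control were -0.11 (95% interval -0.30 to 0.07), 0.08 (-0.17 to 0.32) and -0.0078 (-0.21 to 0.19). In the treadmill group 5 of 6 libraries were below every control library. Hspe1 had medians of 143.8, 161, 157 and 199 FPKM. All 6 catgut 2 libraries of Hspe1, from 159 to 211, were above the highest control library at 154, a difference of 1.34-fold (95% interval 1.12 to 1.61) that did not pass with edgeR (adjusted p = 0.129) and passed with DESeq2 (adjusted p = 0.0374). The ratio of Hspe1 to Hspd1 had medians of 1.87 in control, 2.34 in treadmill, 2.24 in catgut 1 and 2.67 in catgut 2.

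Against control, the number of genes called differed between the groups. In the treadmill group 0 of 10 genes passed an adjusted p under 0.05 with edgeR, where 0.0406% of all genes tested were called higher, although 4 had an unadjusted p under 0.05 (9.12% of all genes in either direction) and DESeq2 called 2, Hspa1b and Dnajb1. The study screened genes by a looser criterion, group means that differ over 1.5 times together with an unadjusted p under 0.05, and this was met by 3 genes, Hspa1b, Dnajb1 and Hsp90aa1 (1.77% of all genes). No member was higher in every treadmill library than in every control library (0.325% of all genes). Without treadmill replicate 1 there was 1 call and 5 genes met the criterion, and without treadmill replicate 2 or 4, or control replicate 3, 4, 5 or 6, 2 genes met it. The number with an unadjusted p under 0.05 was 2 without treadmill replicate 4 or control replicate 3, 4, 5 or 6. Without treadmill replicate 1, 2 genes were higher in every treadmill library and 1 was lower.

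In catgut 1, 2 of 10 genes were called higher, Hspa1b and Dnajb1 (background 0.0203%), 8 had an unadjusted p under 0.05 (9.84%), 7 met the criterion (2.32%) and 2 did not overlap the control group (0.318%). The 7 were Hspa1b, Dnajb1, Hsp90aa1, Hspb1, Hsph1, Bag3 and Cryab. The number of calls was 0 without control replicate 5, 1 without control replicate 1, 3, 4 or 6 or catgut 1 replicate 4, and 3 without catgut 1 replicate 6, and 4 genes met the criterion without catgut 1 replicate 5. Without catgut 1 replicate 6, 4 genes did not overlap. DESeq2 called 3, with Hsp90aa1. In catgut 2, 4 of 10 were called higher, Hspa1b, Dnajb1, Hsp90aa1 and Hspb1 (0.325%), 9 had an unadjusted p under 0.05 (16.4%), 6 met the criterion (3.52%) and 3, Hspa1b, Dnajb1 and Hspe1, did not overlap (0.724%). The number of calls was 2, Hspa1b and Dnajb1, without catgut 2 replicate 1, 2, 3 or 5 or control replicate 1, 3, 5 or 6, and 6 without catgut 2 replicate 4, when Bag3 and Hspe1 were called as well. With control replicate 4 left out it was 3, and with catgut 2 replicate 6 left out it was 4, Hsph1 in place of Hspb1. Without catgut 2 replicate 4 or 6, 5 genes did not overlap. DESeq2 called 7, the 4 genes with Cryab, Bag3 and Hspe1. No member was called lower in the 3 comparisons (background 0.0135% in treadmill, 0% in catgut 1 and 0.183% in catgut 2) or met the criterion in that direction (1.08%, 2.3% and 2.44%). The comparisons share the 6 control libraries, so that they are not independent of each other.

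**Figure D3:**
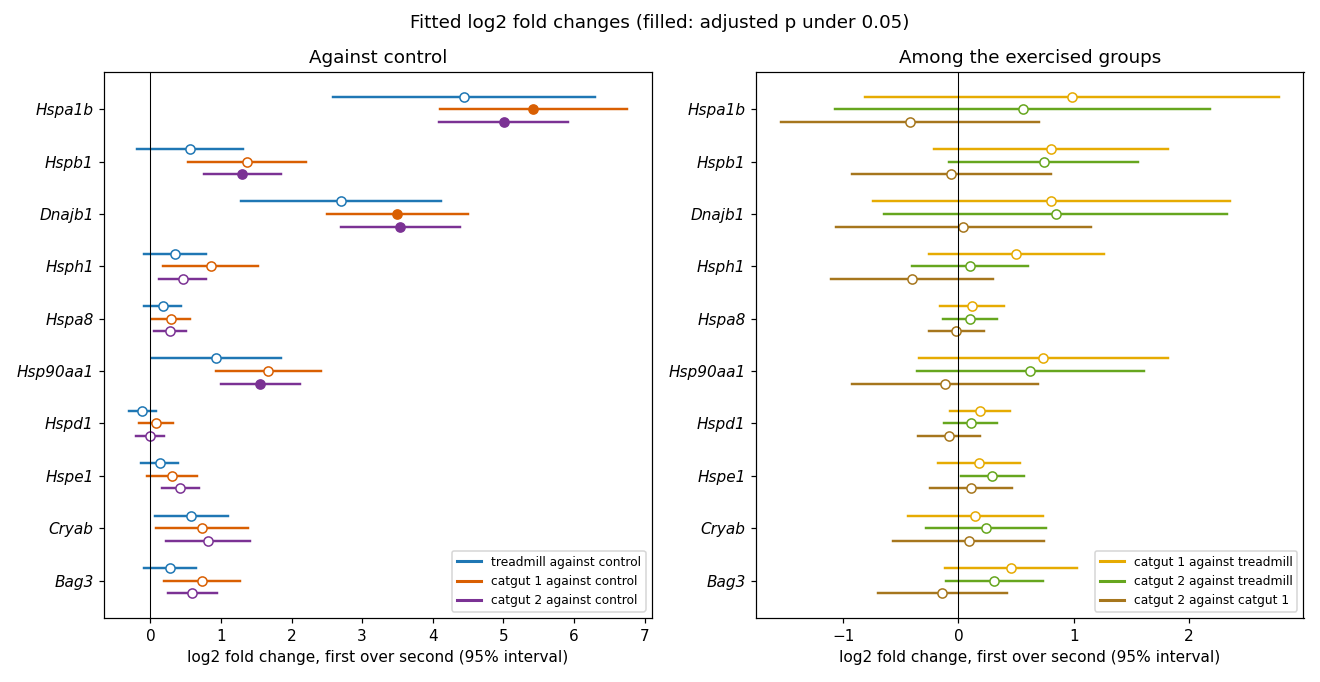
Fitted log2 fold changes with 95% intervals for the 10 genes, against control (left) and among the exercised groups (right), filled where the adjusted p is under 0.05. Against control, Hspa1b and Dnajb1 lie farthest from 0 in all 3 groups and Hspd1 lies near 0. On the right no point is filled, and every interval includes 0 except that of Hspe1 in catgut 2 against treadmill.

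In 1 fit over all 24 libraries, the mean of the 3 exercised groups was set against control. Hspa1b rose 31.2-fold (95% interval 10.5 to 92.7, adjusted p = 0.00308) and Dnajb1 9.52-fold (3.998 to 22.6, adjusted p = 0.0132), 2 of 10 genes against 0.332% of all genes. With limma on log2(FPKM + 1) the Dnajb1 difference was 6.14-fold (adjusted p = 0.00712). Of the 18 exercised libraries, 17 were above every control library for each of these genes. Hsp90aa1, at 2.62-fold, did not pass with edgeR (adjusted p = 0.0943) and passed with DESeq2 (adjusted p = 0.0196), and 12 of 18 libraries were above the control range. The criterion was met by 5 genes, the former together with Hspb1 and Cryab (2.42%), and 9 had an unadjusted p under 0.05 (14.1%), or 6 without control replicate 4. No member was higher in all 18 exercised libraries than than in every control library (0.0542% of all genes), although 2 were without treadmill replicate 1, and none was called lower (0.183%) or met the criterion downward (2.18%). The remaining fitted differences were 2.11-fold for Hspb1, 1.64-fold for Cryab, 1.47-fold for Hsph1, 1.45-fold for Bag3, 1.22-fold for Hspe1, 1.19-fold for Hspa8 and 0.992-fold for Hspd1. The median log2 fold change of the 10 genes was 0.63, and that of all genes -0.0049.

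Whether acupoint catgut embedding added to the exercise was asked by comparing each catgut group with the treadmill group. The study reports that embedding improved exercise tolerance in its earlier work, and the length of the final run is not given here. Embedding and a different length of run therefore cannot be told apart in these comparisons. With edgeR 0 of 10 genes were called in catgut 1 against treadmill (background 0.0338% higher and 0.0135% lower) and 0 of 10 in catgut 2 against treadmill (0.108% higher and 0.129% lower). At an unadjusted p under 0.05 there were 0 in the former (6.93%) and 1, Hspe1, in the latter (10.7%), and DESeq2 called 0 in both. Without treadmill replicate 4 there were 6 at that unadjusted p in each. All 10 fitted differences were above 0 in both comparisons (47.8% and 50.6% of all genes), which share the treadmill libraries. Without catgut 1 replicate 5, 9 of 10 were above 0 in catgut 1 against treadmill. The median log2 difference of the members there was then 0.14 in place of 0.48. For Hspa1b the difference was 1.97-fold in catgut 1 (95% interval 0.569 to 6.85) and 1.47-fold in catgut 2 (0.477 to 4.53). For Dnajb1 it was 1.75-fold (0.597 to 5.10) and 1.79-fold (0.64 to 5.03), and for Hspb1 1.74-fold (0.861 to 3.53) and 1.67-fold (0.946 to 2.95). All of these intervals include no difference. Without treadmill replicate 4 the differences were 4.27-fold in catgut 1 and 3.22-fold in catgut 2 for Hspa1b (adjusted p = 0.55 and 0.32), and 3.41-fold and 3.55-fold for Dnajb1. For Hspa1b in catgut 1 the difference was 1.31-fold without catgut 1 replicate 5, and 3.08- and 3.12-fold with limma. In catgut 2 it was 2.82- and 2.86-fold with limma, 2.68-fold with the replicate block and 2.23-fold with a Y-linked covariate. For Hspe1 the catgut 2 difference was 1.22-fold (1.01 to 1.48, adjusted p = 0.428).

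The study's criterion was met by 0 members in either of these comparisons (1.13% and 1.96% of all genes higher, 1.99% and 1.79% lower), and no member was free of overlap between the groups (0.298% and 0.582%). These counts changed without treadmill replicate 4. That library had the highest treadmill value of 6 members. Without it, 6 members met the criterion in catgut 1 against treadmill, Bag3, Dnajb1, Hsp90aa1, Hspa1b, Hspb1 and Hsph1, and 4 met it in catgut 2 against treadmill, Dnajb1, Hsp90aa1, Hspa1b and Hspb1. Without catgut 1 replicate 6, 1 member met it in the former, and without catgut 2 replicate 4, 1 in the latter. Catgut 2 did not differ detectably from catgut 1, with 0 of 10 genes called by edgeR (0.00677% higher, 0% lower), 0 at an unadjusted p under 0.05 (3.26%) and 0 by DESeq2. None met the criterion (0.9% higher, 0.345% lower) or was free of overlap (0.0542%). The fitted Hspa1b difference was 0.747-fold (95% interval 0.344 to 1.62), or 1.13-fold without catgut 1 replicate 5, and that of Dnajb1 1.03-fold (0.478 to 2.21).

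Libraries differed in the response of the whole gene set. Catgut 1 replicate 5 had the highest value of all 24 libraries for 10 of the 10 genes. Treadmill replicate 4 was above the control range for 9 genes, and below it for Hspd1. Treadmill replicate 1 was above it for 2 genes, Hsph1 and Hspe1, and below it for Hspb1. Catgut 1 replicate 6 was lowest of its group for 8 genes, and catgut 2 replicate 4 for 6. In catgut 2 replicate 3 all 10 genes were above the control range. Within the exercised groups the coefficient of variation of Hspa1b was 131% in treadmill, 92.7% in catgut 1 and 43.4% in catgut 2, and 46.0% in control.

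The genes tended to vary together between libraries. Over the 24 libraries, Pearson's r of log2(FPKM + 1), taken on deviations from group means, was above 0 for 45 of 45 pairs, between 0.14 (Hspd1 with Cryab) and 0.94 (Hspa1b with Dnajb1), with a median of 0.62. Hspb1 and Bag3 reached 0.91, and Hsph1 was closer to Hspd1 (0.82) and Hspe1 (0.83) than to Hspa1b (0.52), and closest to Hsp90aa1 (0.86). Without catgut 1 replicate 5, 40 of 45 pairs were above 0 and the median was 0.48, with Hspa1b and Dnajb1 at 0.93. The values of a library share its depth and normalization, so that these correlations are descriptions.

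**Figure D4:**
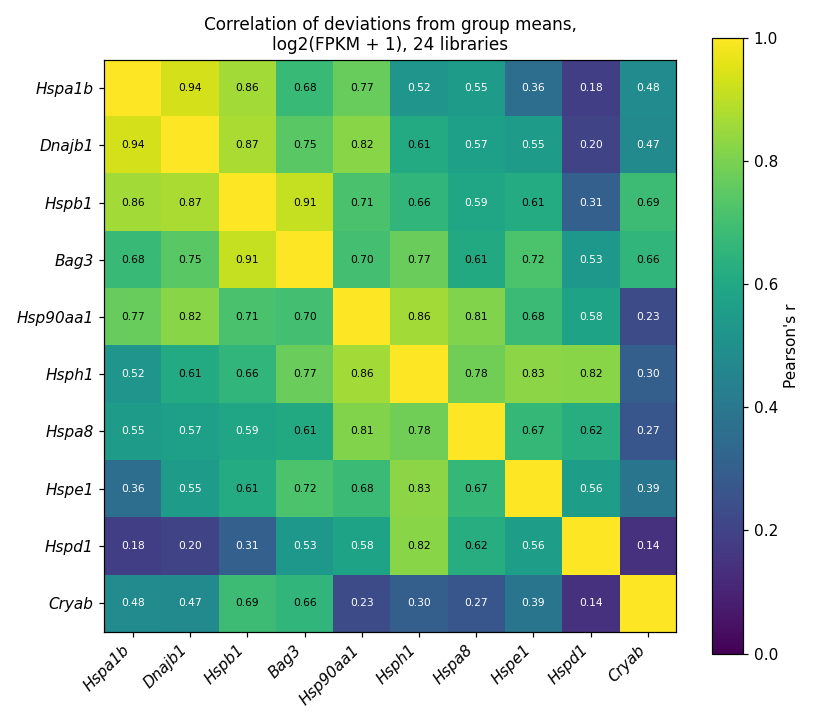
Pearson's r between the 10 genes for deviations of log2(FPKM + 1) from the group means over 24 libraries, with each value printed in its cell. Hspa1b, Dnajb1, Hspb1 and Bag3 were placed at the upper left, where r is 0.68 or higher. Hsp90aa1, placed next, has r between 0.70 and 0.82 with each of them. Cryab and Hspd1 have the lowest values.

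The genes most like each member among 9278 others, by Pearson's r of log2(FPKM + 1) over all 24 libraries, group differences included, were as follows. Hspa1b was closest to Klf2 (0.92), Sik1 (0.91) and Apold1 (0.90), and Dnajb1 to Siah2 (0.90), Atf3 (0.90) and Klf2 (0.90). Hspb1 was closest to Ier5 (0.88), Jun (0.87) and Fam89a (0.85), and Bag3 to Ier5 (0.88), Fam89a (0.85) and Dedd2 (0.85). Klf2, Sik1, Atf3, Ier5 and Jun are known as immediate-early or stress-responsive genes. Hsph1, Hspa8 and Hsp90aa1 had Dnaja1, another J-domain protein, as their closest gene (0.89, 0.89 and 0.94). Their next genes were Ahsa2 (0.88) and Cdr2 (0.85) for Hsph1, PVR (0.85) and Zbtb21 (0.84) for Hspa8, and Nr4a3 (0.91) and Cttnbp2nl (0.91) for Hsp90aa1. Hspd1 was closest to the HSP90 co-chaperones Stip1 (0.84), Ahsa2 (0.77) and Ahsa1 (0.76), and Hspe1 to Fbxl20 (0.77), Ahsa2 (0.76) and Pla1a (0.76). Cryab was closest to Rcan1 (0.87), Myom3 (0.87), a myomesin of the M-band, and Myl12a (0.87).

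Slow-fibre transcripts varied with some of the members. The summed FPKM of 8 slow-fibre genes (Myh7, Tnnt1, Tnni1, Tnnc1, Myl2, Myl3, Atp2a2 and Tpm3, listed after the data had been seen) had medians of 237 in control (54.9 to 1931), 982 in treadmill (26.6 to 2369), 1666 in catgut 1 (22.5 to 3570) and 1501 in catgut 2 (339 to 4686). Each group therefore held libraries that differed widely in these transcripts, by more than the group medians differed from each other. Over 24 libraries the mean log2 level of the list had r = 0.80 and Spearman's rho = 0.82 with Cryab, 0.63 and 0.61 with Hspb1, 0.61 and 0.70 with Bag3 and 0.50 and 0.54 with Hspa1b. On deviations from group means r was 0.77 for Cryab, 0.53 for Hspb1, 0.52 for Bag3 and 0.35 for Hspa1b. Without the 2 libraries farthest from the median level, treadmill replicate 2 and catgut 1 replicate 6, r was 0.86 for Cryab.

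**Figure D5:**
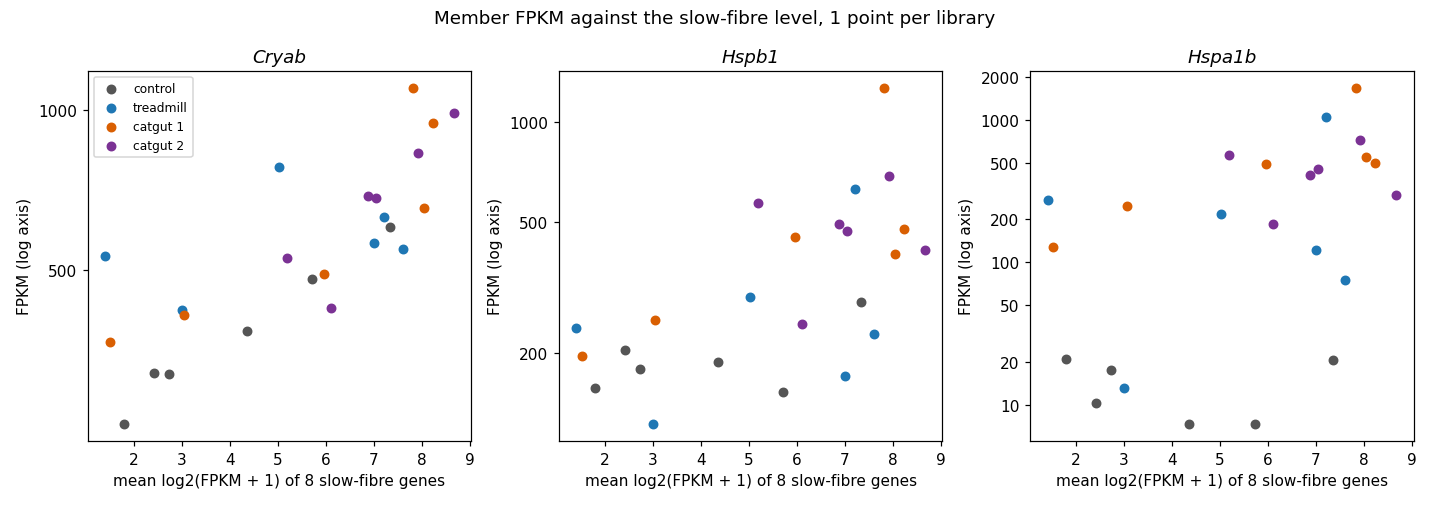
FPKM of Cryab, Hspb1 and Hspa1b on a logarithmic axis against the mean log2(FPKM + 1) of 8 slow-fibre genes, with 1 point per library coloured by group. Cryab climbs with the slow-fibre level in all groups together (r = 0.80), while Hspa1b of the control libraries stays at or below 21.1 FPKM across the range.

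With that level as a covariate, chosen after seeing the data, the log2 difference of Cryab between catgut 2 and control was 0.05 in place of 0.82. Against control it was 0.47 in treadmill, 0.33 in catgut 1 and 0.36 in the exercised groups together. These Cryab values stood in place of 0.58, 0.73 and 0.71, with edgeR adjusted p-values of 0.546, 0.698 and 0.511. For Hspb1 in catgut 2 against control the difference was 0.98 in place of 1.302 (adjusted p = 0.191), and for Hsp90aa1 1.72 in place of 1.56 (adjusted p = 0.052). Hspa1b kept its calls, with log2 differences of 4.68 in catgut 1 (adjusted p = 0.00833) and 4.93 in catgut 2 (adjusted p = 0.00914), and so did Dnajb1 with 2.91 (adjusted p = 0.0469) and 3.35 (adjusted p = 0.0406). In the exercised groups together Dnajb1 lost its call (2.77, adjusted p = 0.0626) and Hspa1b kept it (4.30, adjusted p = 0.0118). Of 12 immediate-early genes 8 were called higher in the exercised groups together (0.332% of all genes), and their summed FPKM was 103 to 344 in control and 285 to 855 in the exercised libraries. Their level had r = 0.84 with Hspa1b over all libraries and 0.64 on deviations from group means. The part of these genes in the results was not tested.

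Of the chaperones beside the 10 genes, none in the following lists was called by edgeR. In the exercised groups against control, 0 of 11 measured members of the other HSP70 and HSP110 genes, 0 of 3 other HSP90 genes, 0 of 19 other J-domain proteins, 0 of 5 tested other small heat shock proteins, 0 of 25 other co-chaperones, 0 of 8 subunits of the cytosolic chaperonin TRiC, 0 of 5 tested heat shock factors and regulators and 0 of 11 mitochondrial chaperones and proteases were called (0.332% of all genes higher and 0.183% lower). At an unadjusted p under 0.05 the counts were 3, 1, 6, 2, 1, 0, 0 and 0 (14.1% of all genes). Median log2 differences of these lists were 0.09, 0.08, -0.07, 0.08, -0.01, -0.03, -0.07 and 0.07. None of these lists had a call in the other 6 comparisons either.

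Within these lists the 2 genes with the smallest p were examined. Hspa1l, a testis-type HSP70 whose sequence is close to that of Hspa1b, had means of 9.21 FPKM in control and 15.3 in the exercised libraries (log2 difference 0.73, adjusted p = 0.188), and Hspa12a had a log2 difference of 0.34. Of the HSP90 genes, Hsp90ab1 had a log2 difference of 0.14 (adjusted p = 0.303) and Hsp90b1 of the endoplasmic reticulum -0.17. Of the J-domain proteins, Dnajc10 of the endoplasmic reticulum had a log2 difference of -0.21 (adjusted p = 0.116) and Dnajc21 of -0.50 (adjusted p = 0.129). Dnaja1 had means of 27.6 FPKM in control and 45.8 in the exercised libraries (log2 difference 0.69, adjusted p = 0.247). In these lists the study's criterion was met as higher by Hspa1l, Dnaja1, Hspb6 and Hspb7 (2.42% of all genes). Of the small heat shock proteins, Hspb6 had means of 378 and 599 FPKM (log2 difference 0.68, adjusted p = 0.194), and Hspb7 49.6 and 111 (1.150, adjusted p = 0.335). St13, which joins HSP70 and HSP90, had a log2 difference of -0.26 (adjusted p = 0.197), and Ahsa2, an activator of HSP90, 0.32. The chaperonin genes Cct7 and Cct2 had 0.06 and -0.05, and the mitochondrial genes Htra2 and Grpel1 0.13 and 0.18.

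Hsf1, the heat shock factor itself, had a log2 difference of 0.08 (adjusted p = 0.722), Hsf2 -0.15 (adjusted p = 0.608) and Hspbap1 -0.16. Of the BAG3 partners and clients, 0 of 9 measured genes were called. Tpm1, a tropomyosin of the thin filament, had means of 7457 FPKM in control and 5073 in the exercised libraries (log2 difference -0.56, adjusted p = 0.114), and Hspa2 had a log2 difference of 0.51. Of 11 other known targets of heat shock factors, 1 was called, Rgs2, a regulator of G-protein signalling, which rose from a mean of 4.36 to 16.1 FPKM (log2 fold change 1.88, SE 0.41, adjusted p = 0.0364), and in catgut 2 against control by 1.89 (adjusted p = 0.0417). Serpinh1, the collagen chaperone HSP47, had a log2 difference of 0.43 (adjusted p = 0.298).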

How the data were processed

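RNA from 24 quadriceps samples was sequenced, 6 per group, with groups taken from the sample labels. The deposited table holds whole-number counts and FPKM values that the authors made per gene. HISAT2 2.0 and StringTie 1.3.0 are named in the submitters' processing notes, while the genome build and the counting step are not given in the sources used here. Their commonest counts above 0 are 4 and 8, so that counts may be worked back from coverage, and 1 alternative divided them by 4. The labels' extraction text speaks of an adipose type, although the tissue is given as quadriceps. The study's methods give 6 animals per group, but the labels do not tie libraries to animals. The p-values therefore set group differences against the spread between these libraries.

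The 14772 of 21067 genes whose FPKM averaged 0.1 or more were tested by the quasi-likelihood test of edgeR 4.0.16 in R 4.3.3 on the deposited counts, with TMM scaling and the compared groups alone in each fit. P-values were adjusted by Benjamini-Hochberg across the whole table tested, and calls are adjusted values under 0.05. The exercised groups against control were a contrast in 1 fit of all groups. Exact permutation tests were two-sided on log2(FPKM + 1). DESeq2 1.42.0, limma 3.58.1 on log2(FPKM + 1) and log2(FPKM + 0.1), other filters and scaling, a Y-linked covariate, a replicate block and leaving out each library were alternatives. The fits were tested on simulated data. Named genes were the 10 members, genes of the chaperone lists with an adjusted p under 0.05 or among the 2 smallest p-values of a list in the exercised groups against control, Hspb2, and the 3 genes most like each member (mean FPKM of at least 1). Dnaja1 and Hsf1 were named after their values were seen. The members and lists were chosen with earlier results of these data known. Promoters came from RefSeq (GRCr8), and their coordinates were not mixed with those of the table.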

Additional observations from a re-analysis of the deposited data

Results flagged for a closer look

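In 40 groups of 6 libraries (10 genes in 4 groups), 3 held a library that stood apart by Dixon's 95% criterion, and chance alone marks about 1 in 20 groups. Hsph1 in catgut 1 replicate 5 was 70.4 FPKM, with the next library of its group at 25.02. Hsph1 in catgut 2 replicate 6 was 11.8 FPKM, with the next at 21.0. Bag3 in treadmill replicate 4 was 66.6 FPKM, with the next at 45.1. Catgut 1 replicate 5 and treadmill replicate 4 also carried the highest values of their groups for 10 and 6 of the 10 genes. The cause was not tested.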

How the results depend on the processing

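Of 152 counts of members under an alternative fit, 141 were equal to their main value or within 1.5 times of it. Counts of 0 that stayed 0 were scored as equal, among them all counts of calls in the comparisons among the exercised groups. A change from 3 to 2, as for the criterion with limma in treadmill against control, was scored as within that limit. The number of members with an adjusted p under 0.05 moved from 0 to 2 with DESeq2 and to 1 with 1 fit over all 4 groups in treadmill against control. In catgut 2 against control it moved from 4 to 7 with DESeq2, to 2 with 1 fit over all 4 groups and to 2 with the slow-fibre covariate. In the exercised groups it moved from 2 to 1 with that covariate. Members meeting the study's criterion in catgut 2 against treadmill moved from 0 to 1 with limma at either pseudocount and to 1 with the Y-linked covariate.

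The labels state no shared origin for a replicate number. Replicates 4 to 6 of 3 groups held Y-linked transcripts, and in catgut 2 replicates 1 and 5 did. Same-numbered libraries deviated together with r over 0.1 in 0 to 3 of 6 pairs per comparison. So few pairs cannot show whether a replicate number marks a shared origin. With the replicate number as a block, the count of calls was 1 in catgut 1 against control and 0 in catgut 2 against control. The block reversed Hspb1 in catgut 2 against catgut 1 to 0.14.

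Leaving out 1 library at a time gave 0 to 1 calls in treadmill against control, 0 to 3 in catgut 1 against control and 2 to 6 in catgut 2 against control. Members meeting the criterion numbered 2 to 5, 4 to 7 and 5 to 7 there, and 0 to 6 in catgut 1 and 0 to 4 in catgut 2 against treadmill. Small log2 differences changed sign. With the slow-fibre covariate, Hspd1 in catgut 1 against control became -0.019, Cryab -0.032 in catgut 1 and -0.067 in catgut 2 against treadmill, and in catgut 2 against catgut 1 Dnajb1 -0.18 and Cryab -0.16. In that last comparison Hspb1 became 0.13 with limma at either pseudocount and 0.10 with the Y-linked covariate, which moved Hspa8 to 0.0032. With libraries left out, Hspd1 spanned -0.020 to 0.12 in catgut 1, -0.063 to 0.045 in catgut 2 and -0.045 to 0.026 in the exercised groups against control, and Cryab -0.033 to 0.27 in catgut 1 against treadmill. In catgut 2 against catgut 1 the ranges were -0.69 to 0.17 for Hspa1b, -0.25 to 0.41 for Hspb1, -0.38 to 0.55 for Dnajb1, -0.54 to 0.043 for Hsph1, -0.072 to 0.059 for Hspa8, -0.29 to 0.28 for Hsp90aa1, -0.14 to 0.014 for Hspd1, -0.062 to 0.27 for Cryab and -0.26 to 0.12 for Bag3. The cause was not tested. With 6 libraries a group and spreads such as that of Hspa1b in treadmill, intervals spanned several fold.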
